A study of Petunia x hybrida with 32 samples.

Results

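Aquaporins are channel proteins of the major intrinsic protein family that let water and small uncharged solutes cross membranes. Described here are the 4 transcripts of the deposited expression table whose annotation names a PIP, a TIP or an XIP aquaporin: comp16298_c1_seq1 (PIP2-4-like), comp10877_c0_seq1 (TIP4-1-like), and comp21541_c0_seq1 and comp21541_c0_seq2 (both X intrinsic protein). They were taken by their identifiers from 4767 transcripts with expression values and come from 3 components, the groups of related transcripts that the Trinity assembler forms. All 4 were among the 4658 transcripts that passed the filter on low values. The annotation file named 41 transcripts of 18 components as major intrinsic proteins, of which 13 transcripts of 5 components had expression values, and the other 28 were not analysed here. How the transcripts of the expression table were chosen from the assembly was not stated in the sources used here, so each count refers to that table. Of the 4767 transcripts, 3334 had no description in the deposited annotation and could not be matched to an aquaporin or to any list by name.

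The leaves came from Petunia x hybrida, a solanaceous ornamental, of the genotype 'Mitchell Diploid'. Plants grew hydroponically in a growth chamber in Hoagland's nutrient solution, and salt plants received the same solution with 150 mM NaCl. The groups were salt leaves at 6 h and at 24 h after the salt was added, and control leaves without NaCl at 0, 6 and 24 h, with 3 biological replicates in each group. A biological replicate was a pool of the youngest expanded leaves of 3 plants, and the same plants were sampled at each hour, so replicates of different hours can share plants. Control leaves at 0 and 24 h were taken at the same hour of the day. Up to 2 libraries were made of a replicate, 1 with an HPLC-purified and 1 with a non-HPLC index primer, and they were averaged. The sample labels and the columns of the table did not match in 2 groups: by the labels, salt leaves at 24 h had 5 libraries and control leaves at 6 h had 6, and by the column names 6 and 5. The library list of the study goes with the column names: its failed library was a non-HPLC one of control leaves at 6 h. It gives reads for every library of salt leaves at 24 h. Columns were used under their own names, but 1 non-HPLC column of salt leaves at 24 h (replicate 2) was left out. The labels name only 1 library of that replicate. No fit with the column was run, so its effect on the results is unknown. Replicate 2 of salt leaves at 24 h and replicate 2 of control leaves at 6 h thus rest on the HPLC library alone. Fits of the non-HPLC libraries alone lack both of these replicates. A further 3 labelled samples of salt plants at 0 h had no column and were not analysed here.

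Plasma membrane intrinsic proteins (PIPs) carry water through the plasma membrane, and those of the PIP2 group are efficient water channels. Tonoplast intrinsic proteins (TIPs) sit in the membrane of the vacuole, the compartment in which plant cells store water, sodium and solutes. X intrinsic proteins (XIPs) form a subfamily found in many dicots, the Solanaceae included, and missing from Arabidopsis; XIPs of Solanaceae have been described as channels for glycerol, urea, boric acid and hydrogen peroxide rather than for water. In leaves, aquaporins set how easily water passes from the veins through living cells, and their transcripts are known to follow the time of day and to respond to salt. In the deposited annotation all 4 transcripts carried the Gene Ontology terms transport, membrane and transporter activity, and only the TIP4-1-like transcript carried the term vacuole.

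Values are RPKM, reads scaled by transcript length and by the mapped reads of the library, so that levels can be set side by side between transcripts. PIP2-4-like was the highest of the 4 in every group, with a mean of 35.7 to 230 RPKM, and stood between percentile 88.8 and 97.1 of the tested transcripts of a group. TIP4-1-like averaged 10.8 to 43.2 RPKM, XIP seq1 2.83 to 26.1 RPKM and XIP seq2 2.3 to 19.4 RPKM. The reads behind an RPKM value cannot be recovered from the table, so the depth of a single value is unknown, and precision rests on the spread between 3 replicates. SDs below are between biological replicates. Fold changes are differences of log2(RPKM + 1), which understate the change of low transcripts, with their standard error (SE), and adjusted p-values come from limma fitted over all 5 groups with the Benjamini-Hochberg method applied across the 4658 transcripts that were tested, and with a call at 0.05.

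**Figure D1:**
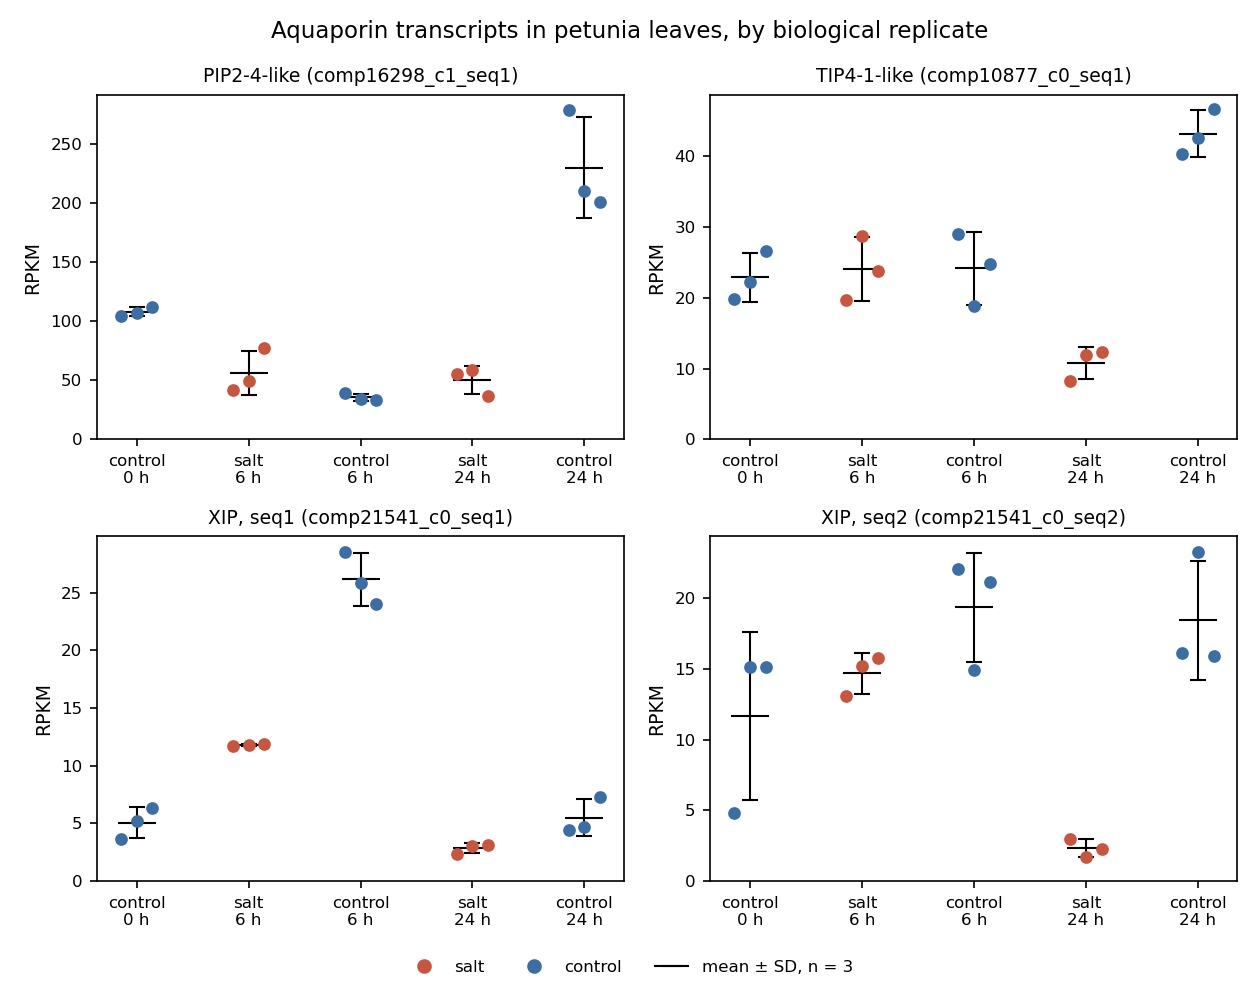
RPKM of each aquaporin transcript (linear axis from 0) in the 5 groups, with 1 point for each biological replicate and a bar for the mean ± SD (n = 3). At 24 h the salt points lie under all control points of that hour in each panel, and at 6 h they do so only for XIP seq1. How many of all tested transcripts separated in this way was not counted (46.5% were called at 24 h and 34.5% at 6 h).

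The salt comparison at 24 h asks how the aquaporins stood after a day in 150 mM NaCl. All 4 transcripts were lower in salt leaves than in control leaves at 24 h, where 46.5% of all tested transcripts were called in either direction and 22.3% were called lower. PIP2-4-like, TIP4-1-like and XIP seq2 also passed the stricter thresholds of the study (an FDR of 0.001 together with a log2 change of 1 or more in either direction), which 14.5% of the tested transcripts passed, while XIP seq1 did not. These thresholds were applied here to limma on log2(RPKM + 1), whereas the study used them with a count test. The median log2 fold change over all tested transcripts was 0.01. In bulk leaf RNA, fewer cells of a type and less RNA per cell cannot be told apart.

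PIP2-4-like, the plasma membrane water channel, had 55.3, 58.6 and 37.0 RPKM in salt leaves at 24 h, against 279, 210 and 201 RPKM in control leaves at 24 h. The highest salt replicate lay far under the lowest control replicate. The means were 50.3 ± 11.6 RPKM in salt leaves and 230 ± 42.8 RPKM in control leaves, a ratio of 0.219 (SD, n = 3 each). The log2 fold change was -2.18 (SE 0.24, limma adjusted p = 8.94e-06), which placed the transcript at rank 108 from the lowest of 4658.

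TIP4-1-like, the tonoplast channel, had 8.27, 11.9 and 12.4 RPKM in salt leaves at 24 h, against 40.2, 42.6 and 46.7 RPKM in control leaves at 24 h. These groups did not overlap either, and the control replicates were close together. The means were 10.8 ± 2.25 RPKM in salt leaves and 43.2 ± 3.28 RPKM in control leaves (SD, n = 3 each), with a log2 fold change of -1.92 (SE 0.23, limma adjusted p = 1.53e-05). A second transcript of the same component, comp10877_c0_seq2, has no description in the annotation and is no aquaporin by name. It had 3.69, 9.73 and 8.17 RPKM in salt leaves at 24 h, against 30.5, 20.4 and 22.8 RPKM in control leaves at 24 h. It was lower as well, with a log2 fold change of -1.71 (SE 0.43, limma adjusted p = 0.00494). Since the estimation divides reads among the transcripts of a component, both were also summed, which was chosen after seeing the data, and the sum gave a log2 fold change of -1.89 (SE 0.29, limma adjusted p = 0.000144).

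The transcripts of the X intrinsic protein differed in size of change. XIP seq2 had 2.97, 1.70 and 2.23 RPKM in salt leaves at 24 h, against 16.1, 23.3 and 15.9 RPKM in control leaves at 24 h. This was the largest drop of the 4 on the log2 scale, -2.56 (SE 0.34, limma adjusted p = 3.87e-05), at rank 59 from the lowest of 4658. The ratio of the means, 2.3 ± 0.638 RPKM in salt leaves to 18.5 ± 4.21 RPKM in control leaves (SD, n = 3 each), was 0.125. XIP seq1 had 2.34, 3.06 and 3.08 RPKM in salt leaves at 24 h, against 4.45, 4.68 and 7.31 RPKM in control leaves at 24 h. The groups did not overlap, but the distance was short, and control replicate 3 was the furthest away. The log2 fold change was -0.74 (SE 0.23, limma adjusted p = 0.0168). Without control replicate 3 at 24 h it was -0.55 (adjusted p = 0.0820), without salt replicate 1 at 24 h it was -0.64 (adjusted p = 0.0676), and in the HPLC libraries alone it was -0.40 (adjusted p = 0.284), so this call depended on which samples and libraries were used.

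Marker transcripts of leaf cell types differed between the same groups, where 22.3% of all tested transcripts were called lower and 24.2% higher. Summed over 5 transcripts of mesophyll markers (photosystem II and chlorophyll a/b binding proteins), levels were 1190 to 1282 RPKM in salt leaves at 24 h and 3527 to 4902 RPKM in control leaves at 24 h, and 2 of the 4 tested transcripts were called lower, a chlorophyll a/b binding protein (comp25306_c0_seq3) and a photosystem II reaction center protein (comp12720_c0_seq2). The sum of 3 xylem and vascular markers (cinnamyl alcohol dehydrogenases and a laccase) was 43.0 to 57.2 RPKM in salt leaves and 72.1 to 90.7 RPKM in control leaves, with 1 of 3 called lower, a cinnamyl alcohol dehydrogenase (comp23357_c0_seq1). The sum of 6 dividing cell markers was 4.90 to 5.92 RPKM in salt leaves and 10.7 to 12.98 RPKM in control leaves, with 1 of 6 called lower, a cyclin-dependent kinase (comp13852_c0_seq2). The lone epidermis marker, a lipid-transfer protein, was called higher, at 528 to 739 RPKM in salt leaves and 125 to 194 RPKM in control leaves. No marker was at 0 in any group, and the part of these differences in the aquaporin results was not tested.

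The salt comparison at 6 h asks what had changed within hours. Of the 4 transcripts, 1 was called, where 34.5% of all tested transcripts were called in either direction and 17.2% were called lower. That transcript was XIP seq1, with 11.7, 11.8 and 11.9 RPKM in salt leaves at 6 h, against 28.6, 25.8 and 24.0 RPKM in control leaves at 6 h. The salt replicates were nearly equal and all were under the controls. The means were 11.8 ± 0.0832 RPKM in salt leaves and 26.1 ± 2.27 RPKM in control leaves (SD, n = 3 each), with a log2 fold change of -1.08 (SE 0.23, limma adjusted p = 0.00306). Single libraries behind the salt means ranged more widely, since each HPLC library was above its non-HPLC library in all 3 replicates. In the non-HPLC libraries alone the log2 fold change was -1.13 (adjusted p = 0.0532).

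XIP seq2 had 13.1, 15.2 and 15.8 RPKM in salt leaves at 6 h, against 22.1, 14.9 and 21.1 RPKM in control leaves at 6 h. The groups overlapped through control replicate 2, and the log2 fold change was -0.36 (SE 0.34, limma adjusted p = 0.410). TIP4-1-like had 19.7, 28.7 and 23.8 RPKM in salt leaves at 6 h, against 29.0, 18.8 and 24.7 RPKM in control leaves at 6 h. These values were interleaved. Its log2 fold change was 0.00 to 2 decimals, with a 95% interval from -0.48 to 0.48 (limma adjusted p = 0.999). PIP2-4-like had 42.0, 49.2 and 77.3 RPKM in salt leaves at 6 h, against 39.0, 34.7 and 33.4 RPKM in control leaves at 6 h. Every salt replicate was above every control replicate here, the other way round from 24 h, but the difference was not called, with a log2 fold change of 0.60 (SE 0.24, limma adjusted p = 0.0659). The salt replicates were spread widely, and without salt replicate 1 at 6 h the value was 0.78 (adjusted p = 0.0393). Without salt replicate 3 at 6 h, the highest, it was 0.34 (adjusted p = 0.285).

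Marker sums also differed at 6 h, and their part in the results of that hour was not tested. Of all tested transcripts, 17.3% were called higher and 17.2% lower at 6 h. The mesophyll sum was 2795 to 4459 RPKM in salt leaves and 2291 to 4084 RPKM in control leaves, which overlapped, with 1 of 4 called higher, a photosystem II subunit (comp15128_c0_seq1). The epidermis marker was called higher, at 146 to 189 RPKM in salt leaves and 32.1 to 79.0 RPKM in control leaves. The sum for xylem and vascular tissue was 21.8 to 25.9 RPKM in salt leaves and 31.6 to 51.6 RPKM in control leaves, with the same cinnamyl alcohol dehydrogenase called lower. That for dividing cells was 9.40 to 14.03 RPKM in salt leaves and 31.3 to 44.4 RPKM in control leaves, with 4 of 6 called lower, all of them MCM2-like or MCM4-like replication licensing factors, and 1 called higher, cyclin-dependent kinase F-1 (comp24659_c0_seq1).

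Whether salt acted differently at 24 h and at 6 h was tested as the interaction of salt and time, the salt effect at 24 h minus that at 6 h. It was called for 3 of the 4 transcripts, and for 32.3% of all tested transcripts. PIP2-4-like gave -2.78 (SE 0.34, limma adjusted p = 0.000149), at rank 83 from the lowest of 4658. XIP seq2 gave -2.19 (SE 0.48, limma adjusted p = 0.00404), and TIP4-1-like gave -1.91 (SE 0.32, limma adjusted p = 0.000771). XIP seq1, which was lower at both hours, gave 0.34 with a 95% interval from -0.35 to 1.04 (SE 0.33, limma adjusted p = 0.444). The interaction of XIP seq2 was not called in the non-HPLC libraries alone (-1.72, adjusted p = 0.0631).

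**Figure D2:**
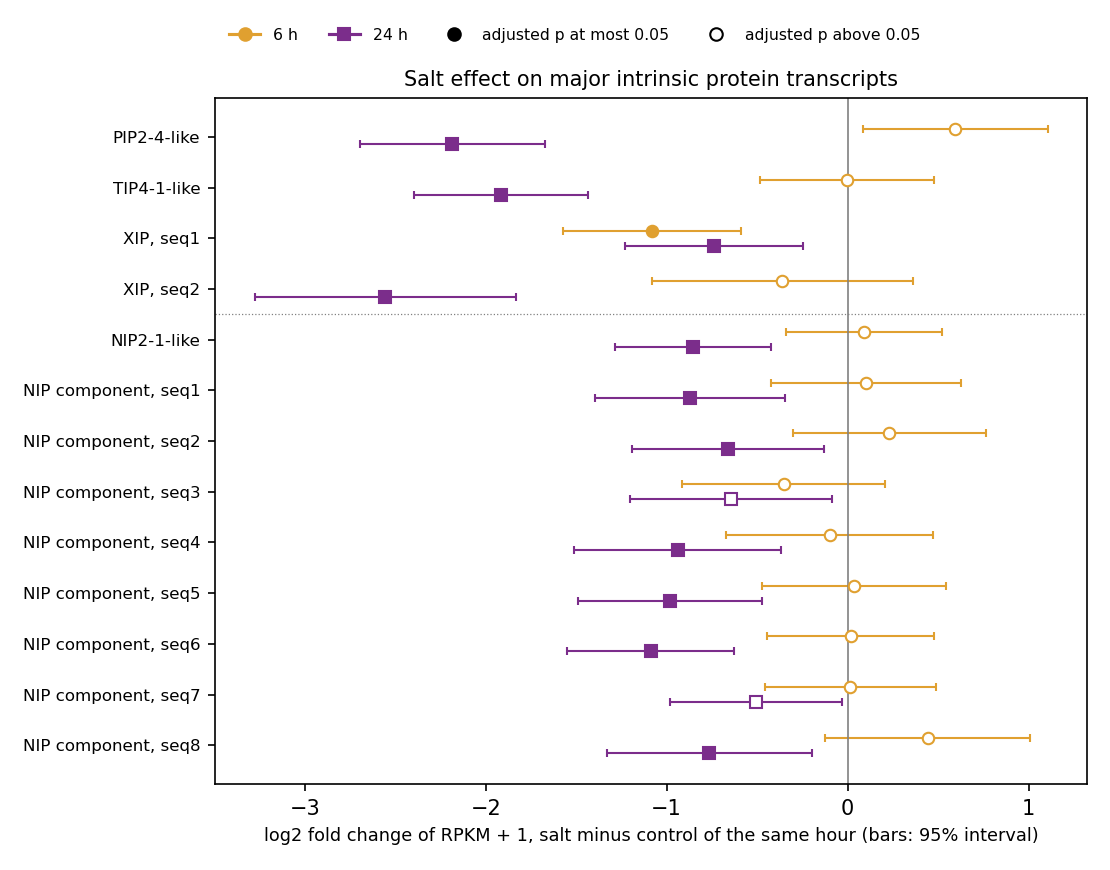
Log2 fold change of RPKM + 1 (x axis), salt minus control of the same hour, for the 4 aquaporin transcripts (above the dotted line) and the 9 NIP transcripts of the table, with 95% intervals and filled symbols where the adjusted p was at most 0.05. At 24 h all 13 values lie left of 0, from -2.56 to -0.51, and at 6 h the one filled symbol is XIP seq1 at -1.08.

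Control leaves changed between hours without salt, which sets the scale for the salt effects. In control leaves at 0, 6 and 24 h, PIP2-4-like averaged 108 ± 3.89, 35.7 ± 2.95 and 230 ± 42.8 RPKM (SD, n = 3 each). The replicates at 0 h were 105, 107 and 112 RPKM, so that no groups overlapped among the 3 hours. PIP2-4-like was lower at 6 h than at 0 h (log2 fold change -1.57, SE 0.24, limma adjusted p = 6.16e-05) and higher at 24 h than at 6 h (2.64, limma adjusted p = 2.57e-07). It was also higher at 24 h than at 0 h, the same hour a day before (1.07, limma adjusted p = 0.00335). Between salt leaves at 24 h and at 6 h it did not pass the test (-0.13, SE 0.24, 95% interval from -0.65 to 0.38, limma adjusted p = 0.638).

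XIP seq1 had its high point in control leaves at 6 h. In control leaves at 0, 6 and 24 h it averaged 5.06 ± 1.33, 26.1 ± 2.27 and 5.48 ± 1.59 RPKM (SD, n = 3 each). The replicates at 0 h were 3.66, 5.23 and 6.30 RPKM, under every replicate at 6 h and overlapping those at 24 h. The log2 fold change at 6 h against 0 h was 2.18 (SE 0.23, limma adjusted p = 1.64e-06), and at 24 h against 6 h it was -2.09 (limma adjusted p = 1.92e-06). At 24 h against 0 h it was 0.09 (limma adjusted p = 0.775). Salt leaves at 24 h were lower than salt leaves at 6 h (-1.75, limma adjusted p = 1.38e-05), and salt leaves at 6 h were above control leaves at 0 h (1.10, limma adjusted p = 0.000724).

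TIP4-1-like averaged 22.9 ± 3.44, 24.2 ± 5.11 and 43.2 ± 3.28 RPKM in control leaves at 0, 6 and 24 h (SD, n = 3 each). Its replicates at 0 h were 19.8, 22.2 and 26.6 RPKM, within the span of those at 6 h. It was higher at 24 h than at 6 h (0.83, SE 0.23, limma adjusted p = 0.00508) and than at 0 h (0.89, limma adjusted p = 0.00677). Summed with comp10877_c0_seq2, it was not called at 24 h against 0 h (0.69, limma adjusted p = 0.0770). Between salt leaves it ran the other way and was lower at 24 h than at 6 h (-1.08, limma adjusted p = 0.000788).

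XIP seq2 averaged 11.7 ± 5.95, 19.4 ± 3.87 and 18.5 ± 4.21 RPKM in control leaves at 0, 6 and 24 h (SD, n = 3 each), and limma called no pair of control hours. The log2 fold change was 0.74 at 24 h against 0 h (limma adjusted p = 0.0964) and -0.07 at 24 h against 6 h (limma adjusted p = 0.870). Its replicates at 0 h were 4.83, 15.1 and 15.2 RPKM. Replicate 1 was low in both of its libraries, at 5.10 RPKM in the HPLC and 4.55 RPKM in the non-HPLC library. The log2 fold change at 6 h against 0 h was 0.81 (SE 0.34, limma adjusted p = 0.0530), and it lay between 0.32 and 1.05 when single replicates were left out. In salt leaves XIP seq2 was lower at 24 h than at 6 h (-2.26, SE 0.34, limma adjusted p = 4.50e-05).

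Across the comparisons among hours, 2 of the 4 transcripts were called in control leaves at 6 h against 0 h (PIP2-4-like and XIP seq1, where 57.1% of all tested transcripts were called) and 2 at 24 h against 0 h (PIP2-4-like and TIP4-1-like, where 38.3% were called). At 24 h against 6 h, 3 were called in control leaves (all but XIP seq2, where 61.6% were called) and 3 in salt leaves (all but PIP2-4-like, where 60.3% were called). Against control leaves at 0 h, 2 were called in salt leaves at 6 h (63.0% of all tested) and 4 in salt leaves at 24 h (62.5% of all tested). Salt leaves at 6 h against control leaves at 24 h gave 3 of 4 called (52.3% of all tested), and salt leaves at 24 h against control leaves at 6 h gave 3 of 4 (69.7% of all tested). The median log2 fold change over all tested transcripts was off 0 by more than 0.1 in 5 of these. It was -0.14 in salt leaves at 24 h against 6 h, -0.12 and -0.24 in salt leaves at 6 and 24 h against control leaves at 0 h, 0.11 in salt leaves at 6 h against control leaves at 24 h, and -0.25 in salt leaves at 24 h against control leaves at 6 h. Several of these comparisons share a group and are not independent of each other.

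Set in order of their levels, PIP2-4-like ran from control 24 h over control 0 h, salt 6 h and salt 24 h to control 6 h. The neighbours salt 6 h and salt 24 h, and salt 24 h and control 6 h (limma adjusted p = 0.0995), did not differ beyond their spread. TIP4-1-like ran from control 24 h over control 6 h, salt 6 h and control 0 h to salt 24 h. The 3 groups in the middle did not differ beyond their spread, and salt 24 h stood under control 0 h (-1.02, limma adjusted p = 0.00135). XIP seq1 ran from control 6 h over salt 6 h, control 24 h and control 0 h to salt 24 h, and here the neighbours control 24 h and control 0 h alone did not pass the test. Salt leaves at 24 h were lower than control leaves at 0 h by 0.65 on the log2 scale (limma adjusted p = 0.0244). XIP seq2 ran from control 6 h over control 24 h, salt 6 h and control 0 h to salt 24 h, with no call between neighbours until the last step (-1.82, limma adjusted p = 0.000373). Salt leaves at 24 h were thus the lowest group for 3 of the 4 transcripts, and PIP2-4-like was lowest in control leaves at 6 h.

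The X intrinsic protein was measured as 2 isoforms of one component, whose shares rest on how the estimation divided the reads. Summed, they had 5.13 ± 0.318 RPKM in salt leaves at 24 h, against 23.9 ± 3.76 RPKM in control leaves at 24 h (SD, n = 3 each), with a log2 fold change of -2.02 (SE 0.27, limma adjusted p = 4.88e-05). At 6 h the sum was 26.5 ± 1.503 RPKM in salt leaves, against 45.5 ± 4.93 RPKM in control leaves (SD, n = 3 each), with a log2 fold change of -0.76 (SE 0.27, limma adjusted p = 0.0442). The sum was called lower at both hours, as XIP seq1 was, and its interaction was called below 0 (-1.26, SE 0.39, limma adjusted p = 0.0241), where XIP seq1 alone had a value above 0 that was not called. The share of seq1 in the sum was 44.1, 64.3 and 58.0% in salt leaves at 24 h, against 21.6, 16.7 and 31.4% in control leaves at 24 h, a difference of 32.2 percentage points with no overlap. At 6 h it was 47.3, 43.6 and 42.9% in salt leaves, against 56.4, 63.4 and 53.2% in control leaves, a difference of -13.1 percentage points, again with no overlap. A two-sided exact permutation test gave p = 0.1 for each, the smallest that 3 against 3 can give (0.15 after adjustment over 6 pairs of groups). In the non-HPLC libraries alone the difference at 24 h was 16.8 percentage points.

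**Figure D3:**
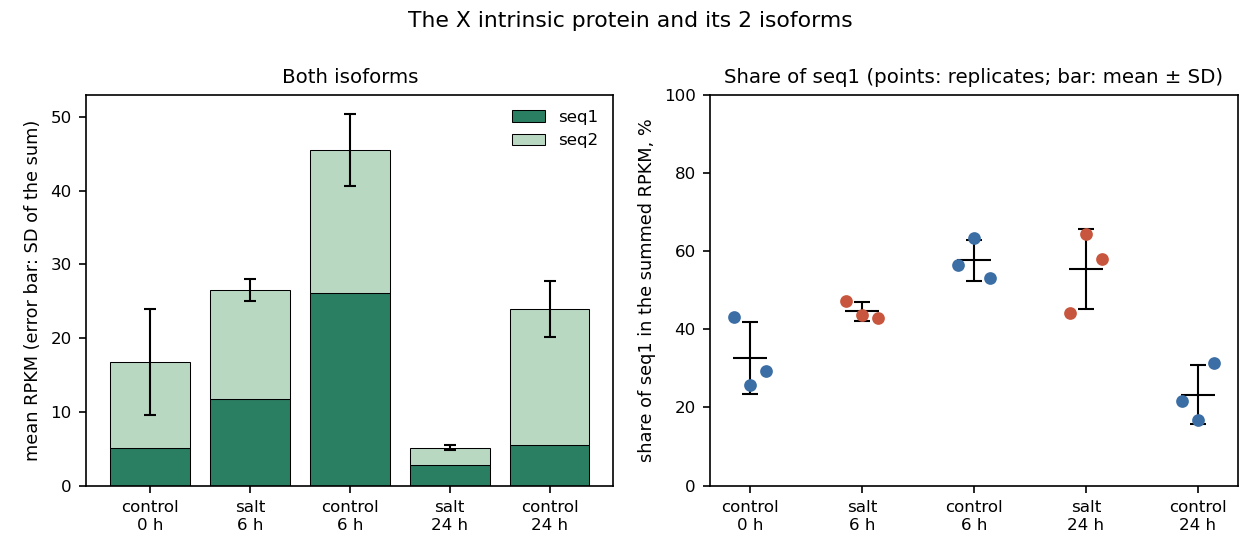
Mean RPKM of the X intrinsic protein isoforms stacked in each group with the SD of their sum (left, n = 3), and the share of seq1 in the sum for each biological replicate with mean ± SD (right, in %). The sum is lowest in salt leaves at 24 h (5.13 RPKM) and highest in control leaves at 6 h (45.5 RPKM), and the share of seq1 is lowest in control leaves at 24 h (16.7 to 31.4%).

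The mean difference between paired libraries was larger than that between biological replicates for PIP2-4-like and XIP seq1, and smaller for TIP4-1-like and XIP seq2. The measures are unlike: the first is between single libraries, the second between replicate means of up to 2 libraries. Averaging lowers the library noise in the second alone, so a larger first value does not show that libraries varied more than replicates. Over the 13 replicates with both, the mean absolute log2 difference between the HPLC and the non-HPLC library was 0.36 for PIP2-4-like, 0.22 for TIP4-1-like, 0.40 for XIP seq1 and 0.20 for XIP seq2. Between biological replicates of a group it was 0.31, 0.30, 0.24 and 0.45 in the same order of transcripts. For PIP2-4-like the HPLC library was the lower of the pair in 10 of 13 replicates, by 0.32 on average on the log2 scale. The salt effect of PIP2-4-like at 24 h was -2.14 in the HPLC and -2.31 in the non-HPLC libraries, and that of TIP4-1-like was -1.95 and -1.91. XIP seq2 gave -2.72 and -2.21, and XIP seq1 gave -0.40 and -1.10.

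**Figure D4:**
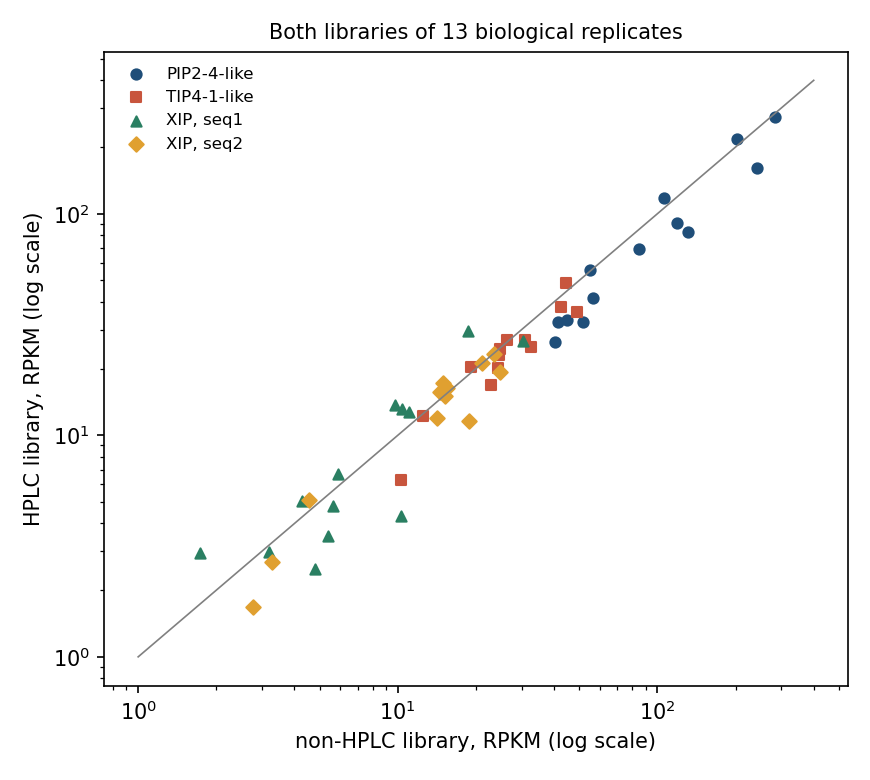
RPKM in the HPLC library (y) and in the non-HPLC library (x) made from one replicate (both axes logarithmic, grey line: equal values) for the 4 aquaporin transcripts in the 13 replicates that have both. The largest difference of log2(RPKM + 1) within a pair was 1.08, for XIP seq1, while the axes show RPKM without the added 1.

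The other major intrinsic proteins of the table were 9 transcripts of the NIP subfamily (nodulin 26-like intrinsic proteins), which carry small solutes such as boric acid and silicic acid in other plants. They came from only 2 components, comp16092_c0_seq4 (NIP2-1-like; NIP2-1 of rice is a silicon transporter) and 8 isoforms of comp21561_c0. One of these isoforms was described as NIP6; NIP6;1 of Arabidopsis transports boric acid. Under salt at 24 h, 7 of the 9 were called lower and none higher (22.3% and 24.2% of all tested), with a median log2 fold change of -0.85 beside 0.01 for all tested transcripts. At 6 h limma called 0 of the 9, and 0 of the 9 had an unadjusted p under 0.05, with a median of 0.04 beside -0.07 for all tested transcripts. Isoforms of one component share reads and are not independent.

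Summed over its 8 isoforms, comp21561_c0 had 29.3, 42.5 and 36.0 RPKM in salt leaves at 24 h, against 73.6, 64.2 and 67.5 RPKM in control leaves at 24 h. The groups were well apart. At 6 h it had 11.4, 10.8 and 13.2 RPKM in salt leaves, against 13.01, 11.2 and 9.93 RPKM in control leaves, which overlapped. In control leaves at 0, 6 and 24 h the sum averaged 59.0 ± 5.02, 11.4 ± 1.55 and 68.5 ± 4.77 RPKM (SD, n = 3 each), so that like PIP2-4-like it was low at 6 h. All 9 NIP transcripts were called lower in control leaves at 6 h than at 0 h (28.1% of all tested) and higher at 24 h than at 6 h (27.4% of all tested). In contrast to PIP2-4-like, 8 of the 9 were also called higher in salt leaves at 24 h than at 6 h (28.3% of all tested).

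Single NIP transcripts called under salt at 24 h ranged in log2 fold change from -1.09 to -0.66. The largest was comp21561_c0_seq6, with 3.04, 3.62 and 3.54 RPKM in salt leaves at 24 h, against 8.94, 7.91 and 8.21 RPKM in control leaves at 24 h. Its means were 3.40 ± 0.315 RPKM in salt leaves and 8.35 ± 0.527 RPKM in control leaves (SD, n = 3 each; -1.09, SE 0.22, limma adjusted p = 0.000992). The called isoforms comp21561_c0_seq1, comp21561_c0_seq2, comp21561_c0_seq4, comp21561_c0_seq5 and comp21561_c0_seq8 averaged 3.44 to 5.21 RPKM in salt leaves and 5.98 to 10.97 RPKM in control leaves. Their single replicates lay between 2.82 and 6.53 RPKM in salt leaves and between 5.14 and 13.4 RPKM in control leaves. No isoform had replicates that overlapped between the groups, but the share of all tested transcripts without overlap was not counted. comp21561_c0_seq3 (-0.64, limma adjusted p = 0.0564) and comp21561_c0_seq7 (-0.51, limma adjusted p = 0.0731) missed the threshold. NIP2-1-like was near the limit of the table, with 0.12, 0.00 and 0.15 RPKM in salt leaves at 24 h, against 0.54, 0.94 and 1.52 RPKM in control leaves at 24 h (-0.85, SE 0.20, limma adjusted p = 0.00323). No transcript of the table was described as a boron transporter.

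Other parts of the salt response that bear on water and ions were read from lists matched to the descriptions. Of 6 transcripts of sodium, potassium and chloride transport, 1 was called higher and 1 lower at 6 h (17.3% and 17.2% of all tested). At 24 h, 2 were called higher and 1 lower (24.2% and 22.3% of all tested). A sodium proton exchanger (comp16645_c0_seq1), of the kind that moves sodium out of the cytosol, was higher at both hours, with 78.8 ± 2.85 RPKM in salt leaves and 26.7 ± 2.92 RPKM in control leaves at 6 h (1.53, limma adjusted p = 0.000171), and 33.9 ± 7.33 RPKM in salt leaves and 16.6 ± 1.11 RPKM in control leaves at 24 h (0.96, limma adjusted p = 0.00177). A potassium transporter 11-like transcript (comp18162_c0_seq2) was higher at 24 h (0.84, limma adjusted p = 0.0362). The transcript called lower at 24 h was a cation exchanger described as a calcium antiporter (comp10506_c0_seq1, -1.41, limma adjusted p = 0.00246). It entered the list by the words cation exchanger, and its description names no sodium, potassium or chloride. It was low, at 1.88 ± 1.59 RPKM in salt leaves and 5.97 ± 0.67 RPKM in control leaves at 24 h. The transcript called lower at 6 h, named here after its values were seen, was a potassium channel AKT2/3-like (comp23771_c0_seq1, -0.90, limma adjusted p = 0.0443). The lone proton pump transcript, subunit e of the vacuolar proton ATPase (comp12758_c0_seq1), was called at neither hour (-0.60 at 6 h and 0.56 at 24 h, limma adjusted p = 0.105 and 0.113), though the difference between its salt effects was (1.16, limma adjusted p = 0.0368).

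The list of abscisic acid signalling, the hormone pathway of drought and salt stress, held 27 tested transcripts of only 10 components. Isoforms of one component share reads, so the counts are not of independent transcripts. Of the 27, 9 were called higher and 5 lower at 6 h (17.3% and 17.2% of all tested). At 24 h, 3 were called higher and 5 lower (24.2% and 22.3% of all tested). The list median was 0.04 at 6 h and -0.38 at 24 h. The 3 with the smallest adjusted p over both hours were isoforms of one protein phosphatase 2C 8-like component, a family that holds negative regulators of the pathway, with log2 fold changes of 2.62, 1.97 and 2.45 at 6 h and 2.88, 2.73 and 2.89 at 24 h for comp21321_c1_seq1, comp21321_c1_seq2 and comp21321_c1_seq3. They were the 3 called higher at 24 h. At 6 h the others called higher, named after their values were seen, were a kinase SRK2E-like (comp14103_c0_seq1, 1.38, limma adjusted p = 0.000217), of the kinase family that the hormone activates, and 5 isoforms of protein phosphatase 2C 63-like (comp25573_c0, 0.91 to 1.70). Also named after their values were seen, the transcripts called lower at 6 h were 1 isoform of an ABA 8'-hydroxylase (comp24444_c0_seq2), 3 isoforms of protein phosphatase 2C 5-like (comp22720_c0) and protein phosphatase 2C 33-like (comp20640_c0_seq1). Those called lower at 24 h were 2 isoforms of the ABA 8'-hydroxylase, an enzyme that breaks down the hormone (comp24444_c0_seq1 at -1.35 and comp24444_c0_seq2 at -1.84), and protein phosphatase 2C 47-like (comp17853_c0_seq1), 63-like (comp25573_c0_seq6) and 5-like (comp22720_c0_seq1). Not all phosphatases of this family act in the hormone pathway. Delta-1-pyrroline-5-carboxylate synthase-like (comp11948_c0_seq1), an enzyme of proline synthesis, was the lone transcript of dehydration and osmoprotection and was higher at 6 h (2.37, limma adjusted p = 1.65e-05) and at 24 h (1.90, limma adjusted p = 1.05e-05). Its salt effect, unlike that of 3 of the aquaporin transcripts, had no called difference between the hours (-0.47, limma adjusted p = 0.247).

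Expansins loosen cell walls during growth, which also needs water uptake. Of 2 transcripts described as expansins in the deposited annotation, 1 was called, and it was lower at both hours (17.2% of all tested at 6 h and 22.3% at 24 h). This transcript, described as an expansin precursor (comp25698_c1_seq2), had 25.5 ± 4.27 RPKM in salt leaves and 66.2 ± 20.7 RPKM in control leaves at 6 h, and 21.1 ± 3.85 RPKM in salt leaves and 108 ± 19.6 RPKM in control leaves at 24 h (SD, n = 3 each; -1.30 and -2.31, limma adjusted p = 0.00201 and 1.03e-05). Alpha-expansin 15 (comp20831_c0_seq1) was called at neither hour (0.83 and -0.62, limma adjusted p = 0.0877 and 0.174). A transcript that the study names as expansin-like B1-like (comp40589_c0_seq1) has no description in that annotation, so the list did not hold it, and it was added after its values were seen. It ran the other way at 24 h, with 66.5, 58.1 and 68.8 RPKM in salt leaves, against 0.00, 0.24 and 3.08 RPKM in control leaves (5.25, SE 0.80, limma adjusted p = 0.000118). At 6 h it had 0.17, 0.00 and 0.38 RPKM in salt leaves, against 0.00, 0.00 and 3.47 RPKM in control leaves, which overlapped (-0.49, SE 0.80, limma adjusted p = 0.642).

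The transcripts most like each aquaporin were sought among described transcripts of other components by Pearson's r of log2(RPKM + 1) over the 15 biological replicates. The points share groups and hours, so r mainly reflects the pattern of the 5 groups, and it is given as a description. Transcripts picked in this way tend to share the salt effect of their aquaporin. Their fold changes and adjusted p-values are thus no separate test. For PIP2-4-like the closest was another channel, the NIP isoform comp21561_c0_seq6 (r = 0.89), followed by a light-inducible protein CPRF2-like (comp26176_c0_seq6, r = 0.89), a bZIP transcription factor of parsley, and a mitochondrial carnitine/acylcarnitine carrier-like transcript (comp14920_c0_seq2, r = 0.88). CPRF2-like averaged 19.1 RPKM in salt leaves and 71.3 RPKM in control leaves at 24 h, and 20.8 RPKM in salt leaves and 13.3 RPKM in control leaves at 6 h. The sides were those of PIP2-4-like, and the difference at 6 h was not called (limma adjusted p = 0.134).

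For TIP4-1-like the closest were a receptor kinase ERL1-like (comp15842_c0_seq2, r = 0.92), of a family that acts in stomatal patterning in Arabidopsis, and uncharacterized transcripts comp13147_c1_seq1 (r = 0.91) and comp13871_c0_seq2 (r = 0.89). ERL1-like averaged 3.54 RPKM in salt leaves and 16.8 RPKM in control leaves at 24 h (-1.99, limma adjusted p = 1.81e-05), while its change at 6 h missed the threshold (limma adjusted p = 0.539). For XIP seq1 the closest were protease Do-like chloroplastic transcripts, comp24015_c0_seq18 (r = 0.97) and comp14898_c0_seq2 (r = 0.95), and a sugar transporter ERD6-like 6 (comp23897_c0_seq2, r = 0.95). The first of these averaged 13.6 RPKM in salt leaves and 22.4 RPKM in control leaves at 6 h, and 3.82 RPKM in salt leaves and 6.44 RPKM in control leaves at 24 h.

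For XIP seq2 the closest were glycoalkaloid metabolism 3 (comp24987_c0_seq1, r = 0.92), an enzyme of steroidal glycoalkaloid synthesis in potato and tomato, a macrophage migration inhibitory factor family protein (comp11219_c0_seq1, r = 0.90) and a leucine-rich repeat receptor kinase (comp23743_c0_seq2, r = 0.90). Glycoalkaloid metabolism 3 averaged 3.21 RPKM in salt leaves and 14.8 RPKM in control leaves at 24 h (-1.91, limma adjusted p = 0.000327). Among the 4 aquaporin transcripts, r over the same 15 replicates was 0.82 between TIP4-1-like and XIP seq2, 0.68 between the XIP isoforms and 0.62 between PIP2-4-like and TIP4-1-like. It was 0.33 between TIP4-1-like and XIP seq1, 0.25 between PIP2-4-like and XIP seq2, and -0.47 between PIP2-4-like and XIP seq1.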

How the data were processed

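Leaf poly(A) RNA was sequenced as strand-specific libraries. The authors trimmed the reads, assembled all of them with Trinity, estimated transcript expression with RSEM, described transcripts with Blast2GO and deposited RPKM values with 2 decimals. Whether a further scaling factor was applied was not stated. RPKM are not counts, so limma was used in place of the count test of the study, and depth is unknown from the table. Of 29 columns, 28 were used and 1 was not (15 HPLC and 13 non-HPLC libraries), under the group their name gives.

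Libraries of a biological replicate were averaged and taken as log2(RPKM + 1). Transcripts with at least 1 RPKM in at least 3 of 15 replicates were tested (4658 of 4767), with limma 3.58.1 under R 4.3.3 in a single fit of all 5 groups whose prior variance followed a trend. Isoform shares were compared by exact permutation tests (scipy 1.17.1). Tables and figures were made with Python 3.11.15, pandas 2.3.3, numpy 2.4.6 and matplotlib 3.10.9. Simulated data with known changes were used to test the fit.

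The 4 members and the gene lists were chosen with earlier results of these data known. Named were all members, the other major intrinsic proteins, up to 3 transcripts of each list with the smallest adjusted p in a salt comparison, and the 3 described transcripts most correlated with each member. Alternatives were a pseudocount of 0.1, no filter, the replicate number as a block, the compared groups alone, HPLC or non-HPLC libraries alone, equal medians, no trend, leaving out each replicate, and isoforms summed. P-values measure the spread between pools of 3 plants. Contig lengths of other assemblies and sequences were not used here.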

Additional observations from a re-analysis of the deposited data

Results flagged for a closer look

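For 3 of the 4 aquaporin transcripts the salt effect differed between the hours, by the test of the difference itself (the salt effect at 24 h minus that at 6 h, limma adjusted over 4658 transcripts, of which 32.3% were called). For comp16298_c1_seq1 (PIP2-4-like) it was -2.78 (SE 0.34, adjusted p = 0.000149), from salt effects of -2.18 at 24 h and 0.60 at 6 h. For comp10877_c0_seq1 (TIP4-1-like) it was -1.91 (SE 0.32, adjusted p = 0.000771), from -1.92 at 24 h and 0.00 at 6 h. For comp21541_c0_seq2 (XIP seq2) it was -2.19 (SE 0.48, adjusted p = 0.00404), from -2.56 at 24 h and -0.36 at 6 h. At 24 h all 3 salt replicates of each were under all 3 control replicates, a separation that was not counted over all tested transcripts. The groups of 3 replicates were too small for a test of single far-off samples.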

How the results depend on the processing

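The called salt effects at 24 h and interactions of PIP2-4-like and TIP4-1-like kept their direction and their call under every alternative run, with salt effects at 24 h of -2.31 to -1.98 and -2.01 to -1.75. Of 653 values under alternatives, 619 kept direction and call, but many of these could not change in direction. Leaving out a replicate of a group outside the comparison returned the same fold change. So did the fits with no filter, a replicate block, the compared groups alone or no trend. Only the call could change there, so the count says little about how stable the directions were. In the replicate block fit no call of the 4 transcripts changed, and PIP2-4-like at 24 h gave -2.18 (adjusted p = 3.12e-05). Replicates with the same number correlated at -0.26 to 0.29 over 30 pairs, and the numbers were not taken as pairs. Between salt and control, 1 of 3 salt replicates at 6 h and 0 of 3 at 24 h correlated best with the control replicate of their own number. Plants can be shared only within a treatment, across hours. There, same-numbered control replicates correlated at -0.20 to 0.29 and salt replicates at -0.07 to 0.08. These values cannot exclude shared plants, and the comparisons among hours were fitted as if replicates were independent. XIP seq1 lost its call at 6 h in the non-HPLC libraries alone (-1.13, adjusted p = 0.0532). At 24 h it lost it with the compared groups alone (-0.74, adjusted p = 0.0537), in the HPLC libraries alone (-0.40), without control replicate 3 at 24 h (-0.55) and without salt replicate 1 at 24 h (-0.64), while over all replicates left out in turn it lay between -0.85 and -0.55. XIP seq2 lost its interaction in the non-HPLC libraries alone (-1.72). Summing the isoforms turned the interaction of XIP seq1 to -1.26 and made XIP seq2 called at 6 h (-0.76). PIP2-4-like at 6 h ranged from 0.34 to 0.78 over single replicates left out and was called without salt replicate 1. Values near 0 that were not called changed sign: TIP4-1-like at 6 h with equal medians (0.093), with its component summed (0.18) and over replicates left out (-0.16 to 0.14), and in control leaves at 6 h against 0 h over replicates left out (-0.073 to 0.23). So did XIP seq1 in control leaves at 24 h against 0 h in the HPLC libraries alone (-0.035) and over replicates left out (-0.10 to 0.24), and XIP seq2 in control leaves at 24 h against 6 h in the HPLC libraries alone (0.032), with equal medians (0.18) and over replicates left out (-0.24 to 0.029). PIP2-4-like in salt leaves at 24 h against 6 h gave 0.056 in the HPLC libraries alone and -0.32 to 0.12 over replicates left out. XIP seq2 became called in control leaves at 6 h against 0 h in the non-HPLC libraries alone (1.09) and without control replicate 2 at 0 h (1.05), control replicate 3 at 0 h (1.05) or control replicate 2 at 6 h (0.98), but was 0.32 (adjusted p = 0.312) without control replicate 1 at 0 h. At 24 h against 0 h it became called with equal medians (0.94) and without control replicate 3 at 0 h (0.98, adjusted p = 0.0448), but was 0.25 (adjusted p = 0.494) without control replicate 1 at 0 h. The seq1 share of XIP at 24 h differed by 16.8 percentage points in the non-HPLC libraries alone, against 32.2 over all. Over all tested transcripts, calls at 6 h numbered 1607, against 1071 in the HPLC libraries alone, 654 in the non-HPLC libraries alone and 1021 without control replicate 2 at 6 h, and interaction calls numbered 1505, against 959 and 642 in the HPLC and non-HPLC libraries alone. The cause of these changes was not tested, except that non-HPLC fits held 13 replicates. Depth behind single RPKM values is unknown, which limits the low values of XIP and NIP transcripts most.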
